A study of Mus musculus with 2 samples.

Results

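The 5 miRNA genes described here, Mir335, Mir296, Mir298, Mir483 and Mir675, belong to the imprinted loci of Mest, Gnas, Igf2 and H19. They were chosen by locus, from 1973 miRNA gene rows, with their levels in these libraries already known, and the levels are therefore given as a description without a test. The libraries were microRNA-seq of RNA shorter than 30 bases, made from the forebrain of healthy B6NCrl mouse embryos at embryonic day 11.5 with males and females pooled. Replicate 1 came from 109 embryos and replicate 2 from 88, and the labels give both tissue pools the same donor entry. The series has 1 group and no treated, mutant or other control samples, so genes were compared with each other and 1 library with the other.

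At an imprinted locus, the copy inherited from 1 parent is transcribed and the other is largely silent, under the control of DNA methylation laid down in the egg or sperm. Mest, a predicted hydrolase of embryonic tissue, and Igf2, a growth factor, are known to be expressed from the paternal copy. H19, a long noncoding RNA, is expressed from the maternal copy. Igf2 and H19 share enhancers, and a methylated control region between them sets which parental copy transcribes which gene. In the developing brain, Igf2 is best known from the choroid plexus, meninges and blood vessels. At the Gnas locus, Mir296 and Mir298 are known to be made from the paternal copy together with Nespas, an RNA that runs antisense to Gnas. The counts do not separate the parental copies, and host gene RNA was not measured in these libraries, so the parental copy is stated as background throughout. It is general knowledge of each locus and may differ between tissues. The paternal label of Mir483 in particular may not hold at the sites of Igf2 named above. Whether the parental copies given here hold in forebrain, those sites included, was not tested.

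A miRNA gene encodes a hairpin that is cut into a 5′ (5p) and a 3′ (3p) mature miRNA of about the length sequenced here. Bases 2 to 8 of the mature miRNA, the seed, pair with target messenger RNAs. The mature sequences of the 5 genes, taken from the RefSeq table for build GRCm38.p6, are shown because they set what a read of each gene looks like and which targets it can pair with. Capitals mark the seed.
miR-335-5p: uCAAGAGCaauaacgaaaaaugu
miR-335-3p: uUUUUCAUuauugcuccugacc
miR-298-5p: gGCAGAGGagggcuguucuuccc
miR-298-3p: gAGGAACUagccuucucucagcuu
miR-296-5p: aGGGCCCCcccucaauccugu
miR-296-3p: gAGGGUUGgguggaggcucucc
miR-483-5p: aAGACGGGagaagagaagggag
miR-483-3p: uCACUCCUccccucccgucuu
miR-675-5p: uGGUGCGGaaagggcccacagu
miR-675-3p: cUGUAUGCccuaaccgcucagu

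All 10 seeds differed from each other, and 0 of them was also the seed of another gene among the 1738 mature sequences of the table. Such singletons are common, since 499 of the 916 genes with both a row and a mature sequence (54.5%) shared no seed with another gene. The 5 genes are therefore grouped by locus and parental copy and not by seed family. Of those 916 genes, 87 (9.50%) had a mature sequence identical to that of another gene, and 0 of the 5 did. The deposited counts are per hairpin and do not separate the 5p from the 3p arm.

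The hairpins of the Gnas pair are shown whole, next to that of Mir335, because the pair is compared closely below. Capitals mark both mature arms.
Mir335: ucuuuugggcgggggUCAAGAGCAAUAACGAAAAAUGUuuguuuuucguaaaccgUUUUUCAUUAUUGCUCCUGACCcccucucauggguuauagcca
Mir298: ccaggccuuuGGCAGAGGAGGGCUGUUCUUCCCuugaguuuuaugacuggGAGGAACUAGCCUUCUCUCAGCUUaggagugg
Mir296: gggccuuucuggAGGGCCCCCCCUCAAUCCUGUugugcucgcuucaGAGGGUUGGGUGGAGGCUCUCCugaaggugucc

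The longest stretch shared by the hairpins of Mir298 and Mir296 was 7 bases, and no pair among the 5 hairpins shared more. None of the 5 shared a stretch of 20 bases with another miRNA gene among 141767 GENCODE transcripts. The only other transcripts with such a stretch were those of H19, which contain Mir675. Reads that map to several places stand on a row of their own and not in the gene counts. Near copies outside annotated transcripts were not searched for.

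The hairpins differed in composition. Mir335 had 42.9% G and C in 98 bases, and 16.7% of the 869 hairpins with a row and a RefSeq hairpin sequence had less. Mir296 with 63.3% and Mir675 with 63.1% were above 88.5% and 88.3% of those hairpins, and Mir298 with 53.7% and Mir483 with 58.9% lay between. The predicted folding energy per base, where a more negative value means a more stable fold, was -0.667 kcal/mol for Mir675, lower than in all but 1.96% of the hairpins. It was -0.452 kcal/mol for Mir335, with 31.5% of the hairpins lower. These are properties of the reference sequence, and their relation to the counts was not tested.

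The positions differ in how each hairpin sits in its host. Mir335 (ENSMUSG00000065501) lies at chr6:30741299-30741396 on the plus strand of mm10, in an intron of all 7 Mest transcripts that span it, on the strand of Mest. Mir483 (ENSMUSG00000070140), at chr7:142654924-142654996 on the minus strand, likewise lies in an intron of all 7 Igf2 transcripts that span it. Mir675 (ENSMUSG00000076275), at chr7:142577064-142577147 on the minus strand, lies in an exon of 3 of the 4 H19 transcripts that span it and in an intron of the other. Mir675 and Mir483 are 77.8 kb apart, on the same strand. Mir296 (ENSMUSG00000065521), at chr2:174267047-174267125, and Mir298 (ENSMUSG00000065410), at chr2:174267504-174267585, both on the minus strand, are separated by 378 bases. GENCODE M21 places neither inside a host gene. Nespas, on the same strand, ends 13.7 kb upstream of Mir298, and the nearest end of Gnas, on the opposite strand, is 16.7 kb away.

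**Figure D1:**
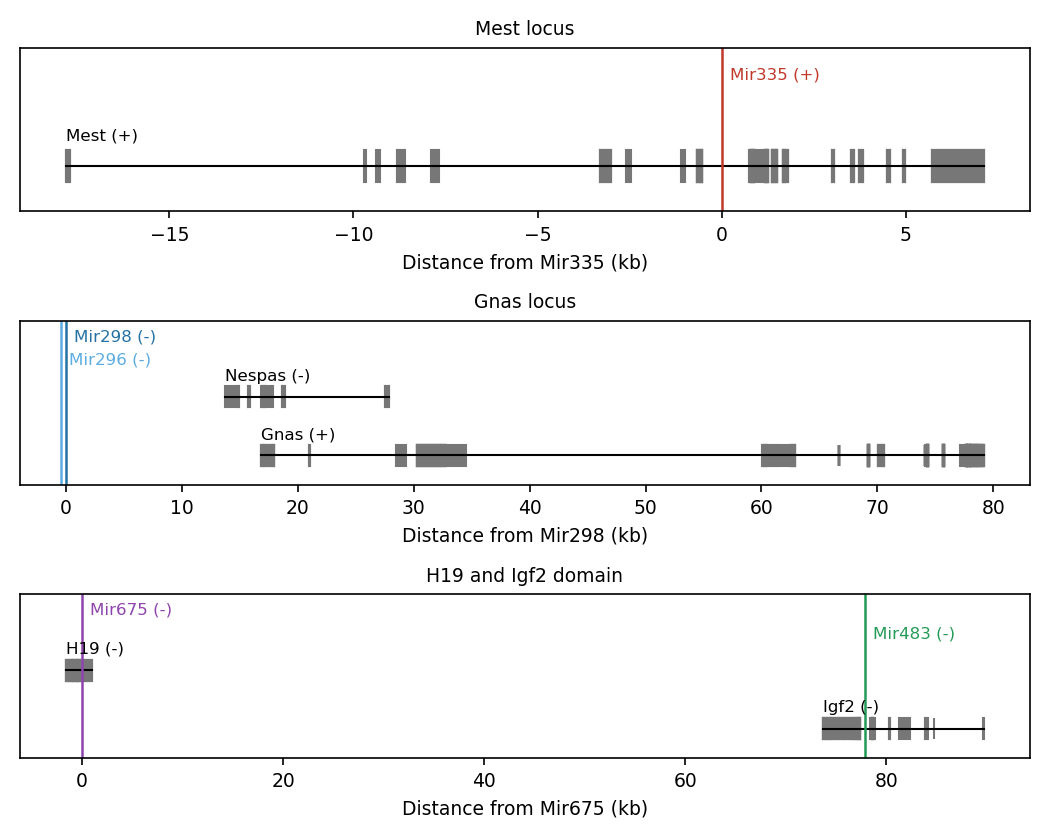
Maps of the 3 imprinted regions, with distance in kb from Mir335, Mir298 or Mir675 on the x axis, grey boxes for all annotated exons, black lines for gene spans and coloured lines for the hairpins, with strands in brackets. Mir335 and Mir483 fall between exons of Mest and Igf2, Mir675 falls in an exon of H19, and the Gnas pair lies outside the annotated span of Nespas.

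The sense-strand counts of all miRNA genes summed to 1281201 in replicate 1 and 1297647 in replicate 2. Levels are CPM (counts per 1e6), a gene's counts divided by this sum. A mature miRNA gives a single read whatever the length of its hairpin, so levels of different genes were compared without dividing by length. How fully each mature sequence was captured in the libraries was not measured. Ratios between different genes are therefore ratios of reads, and their intervals cover counting error only. Libraries of brain tissue should hold neural miRNAs, and 10 of the 11 neural markers with a row reached 2 CPM in each library, among them Mir92b and Mir149 with 17079 ± 1908 and 14979 ± 1706 CPM (SD, n = 2, as for every ± below). The median neural marker had 189 CPM. Mature miRNAs of the Mir9 and Mir124a families come from several gene copies, and reads that map to several copies are not in these counts. Their genes ran from 1.56 CPM for Mir124a-1 to 20.5 for Mir124a-2 and from 8.16 for Mir9-2 to 479 for Mir9-3. Of these, Mir9-3 alone was above the median of 189 CPM. Markers of other cell types were present too. Mir126a of endothelium held 3.46% and 3.03% of the counts and 8 mesenchymal, meningeal and smooth muscle miRNAs 2.40% and 2.17%, while Hox cluster and striated muscle markers held at most 0.0238%. Mir196a-1, Mir1a-1 and Mir133a-1 were listed at 0, but each belongs to a family with more than 1 gene copy, so a 0 does not show that the miRNA was absent. Which cells of the tissue held the 5 imprinted miRNAs was not tested, and in pooled tissue fewer cells of a type and less RNA per cell cannot be told apart.

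All 5 imprinted genes reached 2 CPM in each library, a level that 424 of 1973 genes (21.5%) reached. Since the genes were picked from earlier results on these libraries, nothing is read from that count. Together they took 11.1% of the sense counts in replicate 1 and 11.7% in replicate 2 (11.4% ± 0.467). Mir335 alone made up 78.9% of that sum in replicate 1 and 82.7% in replicate 2. Their levels spanned more than 3 orders of magnitude on the plot of levels by gene.

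**Figure D2:**
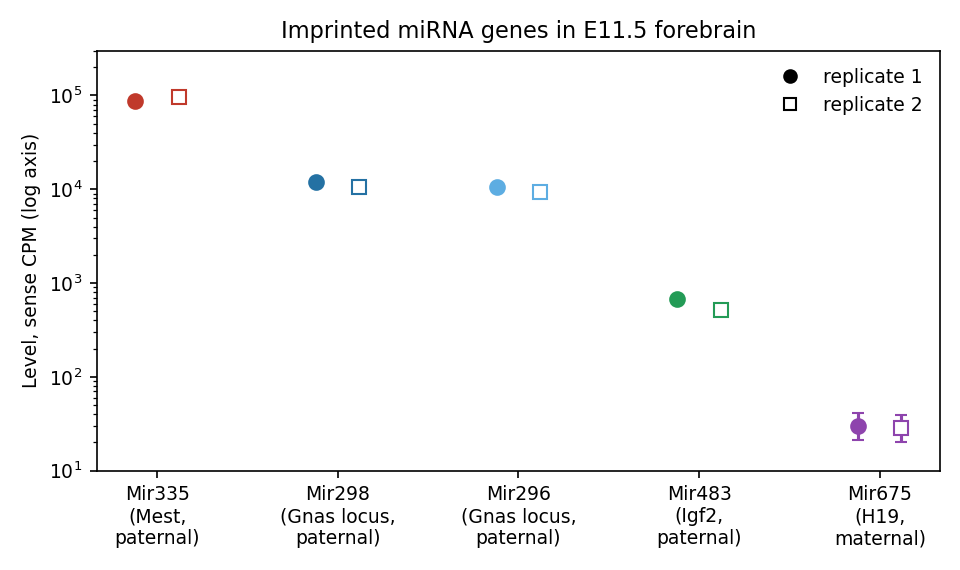
Level in sense CPM (log axis) of each imprinted miRNA gene in replicate 1 (filled circles) and replicate 2 (open squares), with 95% exact binomial intervals that are smaller than the symbol for all genes but Mir675. The level falls from about 92176 CPM for Mir335 to 29.1 CPM for Mir675, and symbols of the 2 libraries lie close together for each gene.

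Mir335, read from the intron of paternally expressed Mest, had 111927 counts in replicate 1 and 125861 in replicate 2. This was 87361 CPM (95% exact interval 86873 to 87851) and 96992 CPM (96483 to 97502), or 92176 ± 6810 CPM. It ranked 1 of 1973 genes in both libraries, with 1.48 times the counts of the next gene, Mir17, in replicate 1 and 1.36 times in replicate 2. The rank is among reads assigned to a single gene. Multimapping reads, 1165381 and 1001079, were more numerous than the reads of Mir335, and genes with several copies can be ranked too low. Its lower library exceeded the higher library of Mir298, the next of the imprinted genes, by a wide margin, with counts 7.29 times those of Mir298 in replicate 1 and 9.25 times in replicate 2. The genes closest in level, by distance of log2(CPM + 1) over the 2 libraries, were Mir17 at 0.72 and Mir99a at 0.99. The neighbouring miRNA genes on chromosome 6 lie far outside Mest, on the opposite strand, and were lower. Mir183 at 572 kb had 1426 ± 46.3 CPM and Mir29a at 321 kb had 119 ± 14.8 CPM.

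The Gnas pair followed. Mir298 had 15362 and 13606 counts, or 11990 CPM (11803 to 12180) in replicate 1 and 10485 CPM (10311 to 10662) in replicate 2, a mean of 11238 ± 1064 CPM. Mir296 had 13685 and 12090 counts, or 10681 CPM (10504 to 10861) and 9317 CPM (9152 to 9484), a mean of 9999 ± 965 CPM. They ranked 20 and 25 in replicate 1 and 23 and 30 in replicate 2. Across libraries the 2 genes overlapped, since Mir298 in replicate 2 was below Mir296 in replicate 1. Within each library Mir298 was higher, beyond counting error. The log2 ratio of Mir298 to Mir296 was 0.17 (95% exact interval 0.13 to 0.20) in replicate 1 and 0.17 (0.13 to 0.21) in replicate 2, or 1.12 and 1.13 times.

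The ratio of the Gnas hairpins was thus within counting error of equal in the 2 libraries. On the scale of all sense counts both were higher in replicate 1, and per read sequenced both log2 ratios were -0.03 and not called. To set the ratio against other clusters, miRNA genes with at least 100 counts over both libraries were taken. Pairs were formed of those next to each other on the same strand within 1000 bases, so a gene with fewer counts may lie between. This comparison was added after the values were seen. Of 55 such pairs, Mir296 and Mir298 had the level difference of order 3 from the smallest, with an absolute log2 difference of 0.17 against a median of 2.38 and a range of 0.11 to 9.24. Their log2 ratios between the libraries differed by 0.00366, order 2 from the smallest, against a median of 0.11 and a highest of 1.07. The pair with the smallest level difference was Mir93 and Mir106b, in Mcm7. In 44 of the pairs neither gene had a mature sequence that another gene in the RefSeq table also holds, so that multimapping matters less. Among these the median level difference was 2.37, with a highest of 7.60, and the Gnas pair was order 2 from the smallest in both measures. Pairs in the same cluster share members, and genes with more counts have less counting error, so this is a description and not a test.

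**Figure D3:**
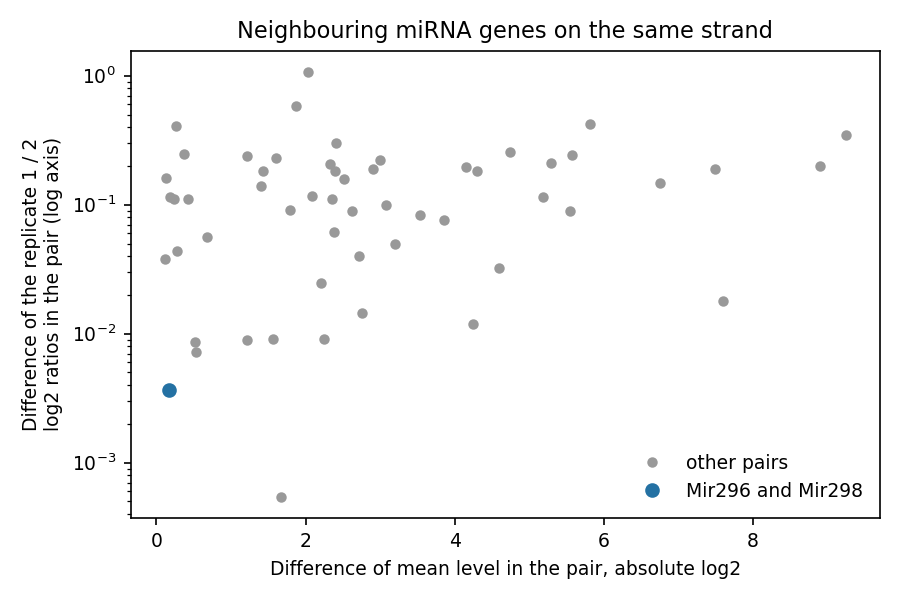
Each point is a pair of same-strand miRNA genes within 1000 bases, next to each other among genes with at least 100 counts (55 pairs). The x axis gives the absolute log2 difference of their mean levels. The y axis (log scale) gives the absolute difference of their replicate 1 to replicate 2 log2 ratios. Mir296 and Mir298, in blue, stand at 0.17 and 0.00366, near the lower left corner.

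The genes most like the Gnas pair in level over the 2 libraries were from several loci. For Mir298 they were Mir411 at a distance of 0.028 and Mir23b at 0.13, with 11084 ± 1034 and 10747 ± 331 CPM. For Mir296 they were Mir431 at 0.0654 and Mir1983 at 0.0655, with 10211 ± 1357 and 9961 ± 511 CPM. Mir411 and Mir431 both belong to the imprinted Dlk1-Dio3 cluster. The nearest miRNA genes beyond the pair on chromosome 2 had almost no reads. Gm27591, 19.1 kb from Mir296 on the opposite strand, had 0 counts in both libraries, which allows up to 2.34 and 2.31 CPM, and Mir7005, 5912 kb from Mir298, had 0 and 1.

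Mir483, in an intron of the growth factor gene Igf2, had 868 counts in replicate 1 and 670 in replicate 2. This was 677 CPM (633 to 724) and 516 CPM (478 to 557), or 597 ± 114 CPM, at ranks 130 and 138. Mir296 had 15.8 times its counts in replicate 1 and 18.04 times in replicate 2, so the order between the loci was the same in both libraries. Genes of like level were Mir1306 and Mir221, both at a distance of 0.21, with 564 ± 35.3 and 608 ± 30.7 CPM.

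Mir675, the miRNA of H19 and the single maternally expressed gene of the 5, had 38 counts in replicate 1 and 37 in replicate 2. This was 29.7 CPM (20.99 to 40.7) and 28.5 CPM (20.1 to 39.3), or 29.1 ± 0.811 CPM, at ranks 283 and 285. These levels were above the 2.34 and 2.31 CPM that correspond to 3 counts. With so few counts, the interval of each library is wider than the difference between the libraries. The nearest genes in level were Mir7j at a distance of 0.052 and Mirlet7c-2 at 0.12, with 29.9 ± 0.818 and 27.5 ± 1.89 CPM. Mir3104, 585 kb away on the other side of H19 from Igf2, had 1 count in each library.

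**Figure D4:**
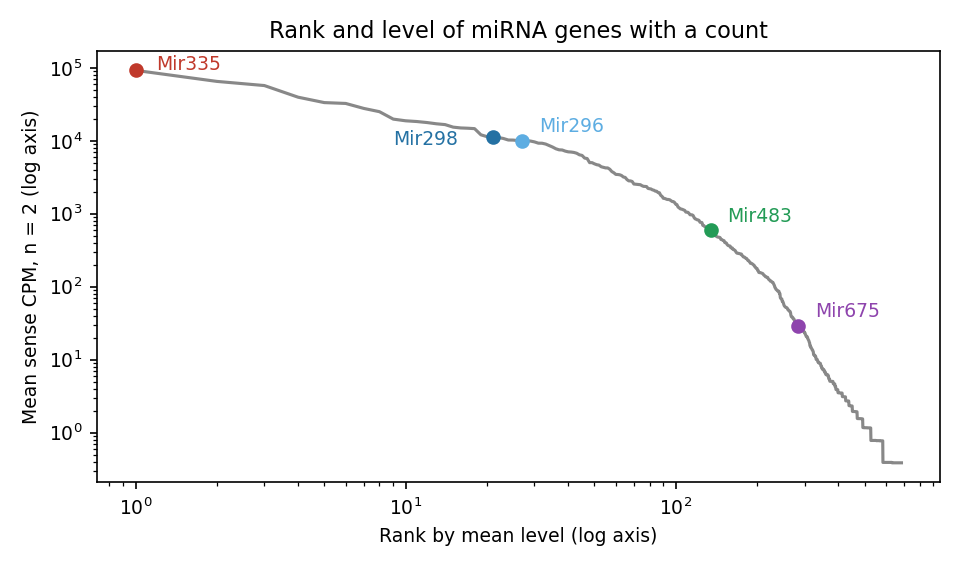
Mean level in sense CPM over the 2 libraries (log axis) of each miRNA gene with a count, against its rank (log axis), with the 5 imprinted genes in colour. Mir335 stands at rank 1, Mir298 and Mir296 at 21 and 27, Mir483 at 135 and Mir675 at 284.

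The 4 genes grouped as paternally expressed had far more counts than Mir675. Mir335, Mir298, Mir296 and Mir483 together had 110710 CPM in the first library and 117310 CPM in the second. These sums were 3733 and 4114 times the level of Mir675, and the log2 ratio was 11.85 (11.41 to 12.36) and 11.99 (11.54 to 12.51). The size of this ratio rests mostly on Mir335, since without it the mean log2 ratio was 9.53 instead of 11.92. The maternal side consists of a single gene, so locus and parental copy cannot be told apart here.

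The same control region serves Igf2, grouped as paternal, and H19, grouped as maternal, and there Mir483 was also the higher. It had 22.8 times the counts of Mir675 in replicate 1 and 18.1 times in replicate 2. The log2 ratio was 4.50 (4.05 to 5.02) and 4.16 (3.70 to 4.70), a mean of 4.33 ± 0.237. The intervals of the 2 libraries overlap. These are reads of mature miRNAs, and the transcription of Igf2 and H19 was not measured. The ratio therefore does not compare the output of the host genes or of the parental copies. Mir7064, the next miRNA gene with a row beyond Igf2, 916 kb away, had 5 and 7 counts.

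Among reads assigned to a single gene, the other imprinted miRNA loci did not show higher counts for genes grouped as paternal. The Dlk1-Dio3 cluster of chromosome 12, expressed from the maternal copy, held 10.9% of the counts in replicate 1 and 10.4% in replicate 2, close to the 11.1% and 11.7% of the 5 genes. The tables list 50 of its genes, of which 46 reached 2 CPM in each library, and the median gene had 497 CPM, with Mir487b at 12059 ± 47.5 and Mir411 at 11084 ± 1034 CPM in the lead. The cluster in Sfmbt2, grouped as paternally expressed, held 0.512% and 0.499%, and 10 of its 107 listed genes reached that level. Mir467d with 1566 ± 142 and Mir467c with 1202 ± 2.32 CPM led it. Many Sfmbt2 hairpins are near copies of each other, and 82 of the 107 had 0 counts. The counts of this cluster can be too low by an unknown amount. Mir184, of the Rasgrf1 locus, also grouped as paternally expressed, had 5 counts and 1 count. Whether Sfmbt2 and Rasgrf1 are expressed from the paternal copy alone in forebrain was not tested. On the scale of all sense counts, 13 of 46 tested Dlk1-Dio3 genes were higher and 1 lower in replicate 1, by the exact binomial test described below. Of the 9 tested Sfmbt2 genes, 1 was higher and 0 lower. Over all genes tested, 20.6% were higher and 7.79% lower, shares that change with the denominator.

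Reads of the 5 genes lay on the sense strand almost without exception. Mir335 had 2 opposite-strand counts in replicate 1 and 1 in replicate 2, and the other 4 genes had 0 in both. Over all genes, 96.4% and 96.8% of the counts were on the sense strand.

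Between the libraries, Mir335 was lower in replicate 1 and the Gnas pair and Mir483 were higher, beyond counting error on the scale of all sense counts. Every gene whose counts in both libraries summed to at least 10 was tested with a two-sided exact binomial test against the library totals. P-values were adjusted by the Benjamini-Hochberg method over 398 genes. At an adjusted p under 0.05, 4 of the 5 genes were called, against 28.4% of all genes tested. Of these, 3 were higher in replicate 1, against 20.6% of all genes, and 1 was lower, against 7.79%. Abundant genes pass this test more easily, and of the 135 genes with a mean level at or above that of Mir483, 78 (57.8%) were called. With a 2-fold minimum 0 of the 5 were called, against 2.76% of all genes. The test compares these libraries and covers counting error only.

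Mir335 had a log2 ratio of replicate 1 to replicate 2 of -0.15 (95% exact interval -0.16 to -0.14, adjusted p = 5.34e-141, exact binomial test). Mir298 had 0.19 (0.16 to 0.23, adjusted p = 1.07e-28, exact binomial test) and Mir296 0.20 (0.16 to 0.23, adjusted p = 1.38e-26, exact binomial test), and both turned to -0.03 when scaled to all reads sequenced, where neither was called. Mir483 had the largest ratio of the 5, 0.39 (0.24 to 0.54, adjusted p = 1.02e-06, exact binomial test), and 0.17 when scaled to all reads sequenced, where it was not called (adjusted p = 0.0706). Mir675 had 0.06 (-0.64 to 0.75, adjusted p = 0.994, exact binomial test), an interval that takes in the ratios of the other 4. The scale depends on the denominator, because sense counts were 32.4% of all reads in replicate 1 and 37.9% in replicate 2. Mir335 was lower in replicate 1 under all 5 scalings run, from -0.15 to -0.38. A ratio between 2 genes of a library does not depend on the denominator, and Mir335 to Mir298 was 2.87 (2.84 to 2.89) in replicate 1 and 3.21 (3.18 to 3.24) in replicate 2.

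With a spread between libraries in the test, none of the 5 genes was called. The biological coefficient of variation that edgeR estimated over all genes was 10.3%. It comes from the same 2 libraries that are compared, 1 in each arm, so differences between them enter the spread, and the lack of calls does not show that the levels were equal. In the edgeR exact test at that spread, 0 of the 5 genes were called and 0 had an unadjusted p under 0.05, with unadjusted p = 0.292 for Mir335, 0.565 for Mir298, 0.553 for Mir296, 0.156 for Mir483 and 1.00 for Mir675. The same test called 8 of the 398 genes, and 21 had an unadjusted p under 0.05.

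**Figure D5:**
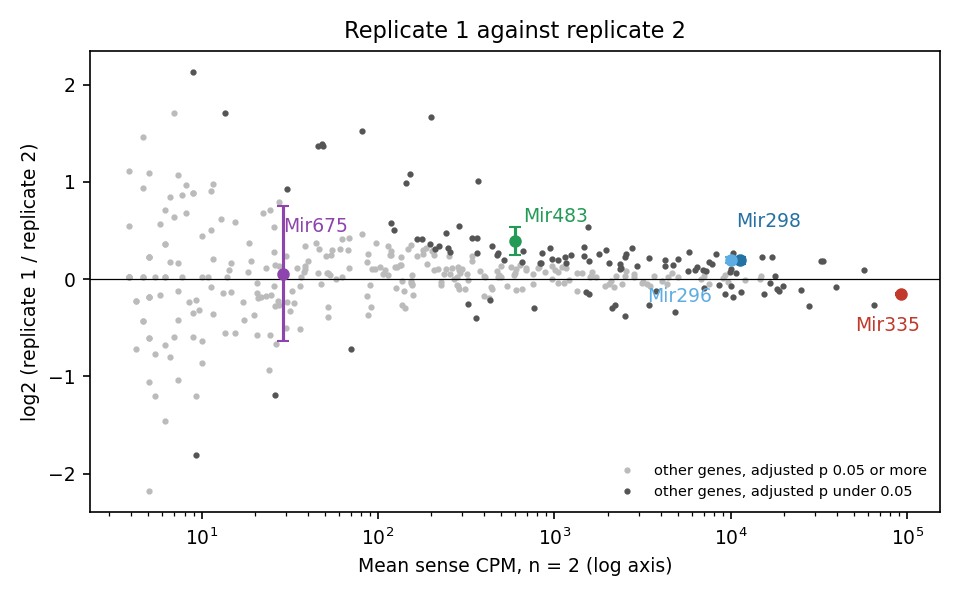
Log2 ratio of replicate 1 to replicate 2, scaled to all sense counts, against mean sense CPM (log axis) for the 398 tested miRNA genes. The 5 imprinted genes are in colour with 95% exact intervals. The others are in grey, darker at an adjusted p under 0.05 (exact binomial test). Mir335 lies at -0.15, Mir675 at 0.06 with a wide interval, and Mir298, Mir296 and Mir483 lie above 0, of which Mir298 and Mir296 fall to -0.03 when scaled to all reads sequenced.

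Marker miRNAs of other cell types differed between the libraries as well. The log2 ratio of summed CPM, replicate 1 to replicate 2, was 0.15 for the 8 mesenchymal, meningeal and smooth muscle markers. It was 0.19 for endothelial Mir126a and 0.23 for the 11 neural markers. It was 0.79 for the erythroid markers with a row, Mir451a and Mir144, of which Mir144 alone had -0.06, 0.30 for 4 liver and endoderm markers, 0.99 for striated muscle and 1.35 for Hox cluster markers, and the sums of the last 2 ran from 80.9 to 238 CPM. Each sum follows its most abundant genes, and single markers differed. Of the 8 mesenchymal, meningeal and smooth muscle markers, 5 were called higher and 1, Mir199b at -0.40, lower in replicate 1. Among 9 tested neural markers 5 were called higher and 0 lower, and Mir124a-2 had -0.58 but was not called. On the same scale of all sense counts, Mir298, Mir296 and Mir483 had ratios of the same sign as those of the sums and Mir335 the opposite one. Scaled to all reads sequenced, every ratio is lower by 0.22, which turns those of the mesenchymal and endothelial sums, Mir298 and Mir296 below 0. The part of these cell types, of dissection or of the pools in the differences was not tested.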

How the data were processed

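According to the labels and the deposited text files, reads of 2 E11.5 forebrain libraries were aligned to mm10 and counted per gene of GENCODE M4. Neither aligner nor counting tool is given in the sources used here. The deposited tables hold raw counts, unstranded and per strand, and the sense column was used. Rows of unmapped, multimapping and unassigned reads were kept out of totals. Multimapping reads were 41.7% and 39.1% of mapped reads. Symbols, positions and hosts came from GENCODE M21 (GRCm38), which held 1894 of 1973 identifiers, and sequences from RefSeq (GRCm38.p6), which held all 5 members.

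CPM used the sense counts of all genes, and log2 ratios had 0.5 counts added. The exact binomial test ran across all genes with 10 counts or more. Shares and ratios have 95% Clopper-Pearson intervals, which, like limits of 3 counts, cover counting error only, since PCR reads are not independent molecules. Tissue pools share a donor entry, so SDs measure the spread between these samples. A quasi-likelihood test had no second group to compare. The exact binomial test and the ratio intervals were checked on simulated counts with counting error only, and the edgeR exact test was not checked. Tools were edgeR 4.0.16, DESeq2 1.42.0, R 4.3.3, Python 3.11.15, scipy 1.17.1 and RNAfold 2.7.2.

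The members, lists and tests were chosen with earlier results of these data known. Named genes are the members, their nearest neighbours with a row, the 2 genes nearest in log2(CPM + 1), genes sharing a seed, and the 2 leading genes of other imprinted loci. Mir17, as the next gene by rank, Mir93 and Mir106b and the marker genes were named after their values were seen. Alternatives covered the strand column, denominators, detection limits, filters, pseudocount, test and single libraries.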

Additional observations from a re-analysis of the deposited data

How the results depend on the processing

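The order of the 5 genes and the log2 ratios between them kept their direction under every alternative run for them. The levels themselves depend on the denominator: Mir335 had 92176 per 1e6 sense counts, 32503 per 1e6 reads sequenced, 44607 per 1e6 mapped reads and 156698 with the 10 most abundant genes left out of the denominator, and Mir675 had 29.1, 10.2, 14.0 and 49.4. The number of genes called different between the libraries fell from 4 to 0 in the edgeR exact test, both at the estimated spread and at a coefficient of variation of 0.2, and to 1, Mir335, when scaled to all reads sequenced, a denominator added after the data were seen. With that denominator the log2 ratio between libraries turned to -0.0314 for Mir298 and -0.0277 for Mir296, and stood at 0.17 for Mir483 (adjusted p = 0.0706, exact binomial test). The count stayed at 4 with TMM, DESeq2 size factors, mapped reads, unstranded counts and other filters. Over all genes, 82 were higher and 31 lower in replicate 1 with library totals, 52 and 54 with TMM, 61 and 49 with DESeq2 size factors, 34 and 85 per mapped read and 15 and 118 per read sequenced. The last 2 denominators move the log2 ratios by 0.15 and 0.22. Per base of hairpin, also added later, the log2 ratio of Mir335 to the other 4 was 1.79 instead of 2.08, that of Mir298 to Mir296 0.11 instead of 0.17, and that of the paternal genes to Mir675 11.77 instead of 11.92. Without Mir335 the last was 9.53. Depth limits Mir675, whose interval for the log2 ratio between the libraries ran from -0.64 to 0.75. No paired analysis was possible because the series has 1 group.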
